A study of Mus musculus with 2 samples.

Results

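Chemokine ligands are small secreted proteins that steer leukocytes along concentration gradients by binding receptors on their surface. The CXC ligand Cxcl2 draws neutrophils through Cxcr2, the CC ligands Ccl3, Ccl4 and Ccl5 draw monocytes and lymphocytes, and Ccl2 draws monocytes through Ccr2. Cxcl9 and Cxcl10 are induced by interferons and call activated T cells through Cxcr3, Cxcl16 does so through Cxcr6, and Ccl22 is a dendritic cell product that binds Ccr4. The 10 ligands described here (Cxcl2, Ccl3, Ccl4, Ccl5, Ccl6, Ccl2, Cxcl9, Cxcl10, Cxcl16 and Ccl22) were taken by gene symbol, and all 10 had a row among the 32285 genes listed in each of 2 single-cell count matrices. Cxcl2, Cxcl9 and Cxcl10 lie on chromosome 5, Ccl22 lies on chromosome 8, and the other 6 lie on chromosome 11 of the mm10 build.

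The cells came from female BALB/cAnNCrl mice, bought at 7 to 8 weeks of age, that carried 4T1 mammary carcinoma cells as liver metastases, seeded by way of a divided spleen. Mice received vehicle, low-dose CBL0137 or high-dose CBL0137, a small molecule given by hepatic arterial infusion, and cells were collected 5 days later with 2 mice pooled per group. The 3 groups carried the hashtag antibodies A0301, A0305 and A0310 and were run together in 1 droplet library per organ, so each group in each library was 1 pooled sample with no replicate. No test was possible and none is given; no amount of drug is tied to the names low dose and high dose in the labels or methods read for this work. Intervals are 95% exact intervals and cover counting error alone, not the spread between mice. The methods describe CD11b+ bead-isolated cells whereas the labels say leukocytes, and both libraries held T cell-like and B cell-like barcodes. Fewer cells of a type and less RNA per cell are separated here only as far as cells were caught and assigned to a class.

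The liver-labelled library held 9591 barcodes, of which 8435 were assigned to 1 hashtag (3103 vehicle, 3194 low dose and 2138 high dose, at medians of 4497, 4663 and 4794 unique molecular identifiers, UMIs, per cell). The spleen-labelled library held 4830 barcodes, of which 2988 were assigned (822, 1301 and 865, at medians of 5107.5, 4694 and 7930). Liver-cell transcripts went against these labels. Summed hepatocyte markers reached 43.7 counts per 1000000 UMIs (CPM) in the liver-labelled library and 159.9 CPM in the spleen-labelled library, Kupffer markers 15.2 and 637 CPM, and endothelial markers 38.8 and 428 CPM. The file names also give the opposite organs. All values are therefore stated by library label, and no direction between organs is drawn. The libraries shared 15 barcodes. Levels pool all cells of 1 class in 1 group and are given as CPM of their summed UMIs. A class name ending in "-like" rests on marker genes that include no chemokine.

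The class with the most UMIs of a ligand differed between the libraries for most ligands, but not for Cxcl2 or Ccl22. No cluster of the spleen-labelled library was named NK-like. The map of levels by class shows every ligand in both libraries. In the liver-labelled library, neutrophil-like cells held 93.6% of the 3288 Cxcl2 UMIs, 60.8% of the 13702 Ccl6 UMIs and 60.7% of the 262 Ccl2 UMIs, and NK-like cells held 74.9% of the 24218 Ccl5 UMIs, 43.2% of the 1189 Ccl4 UMIs and 33.2% of the 731 Ccl3 UMIs. Of the 224 Cxcl9 UMIs, 119 lay in 1 high-dose stem and early progenitor-like cell. Monocyte-like cells held the most Cxcl10 (38.0% of 158 UMIs) and Cxcl16 (52.1% of 219). In the spleen-labelled library, neutrophil-like cells held 76.2% of the 37867 Cxcl2 UMIs, T cell-like cells held 79.6% of the 19348 Ccl5 UMIs and 33.3% of the 4341 Ccl4 UMIs, and macrophage-like cells held the largest share of Ccl6 (53.4% of 17132), Ccl2 (45.0% of 2505), Cxcl9 (45.8% of 1506), Cxcl10 (28.7% of 823) and Cxcl16 (62.6% of 2270). Ccl3 was spread over neutrophil-like (20.7% of 2873), T cell-like (20.6%) and macrophage-like cells (20.0%), shares whose intervals overlapped. A share of UMIs depends on how many cells of a class were caught as well as on the level per cell, so the levels are given below.

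**Figure D1:**
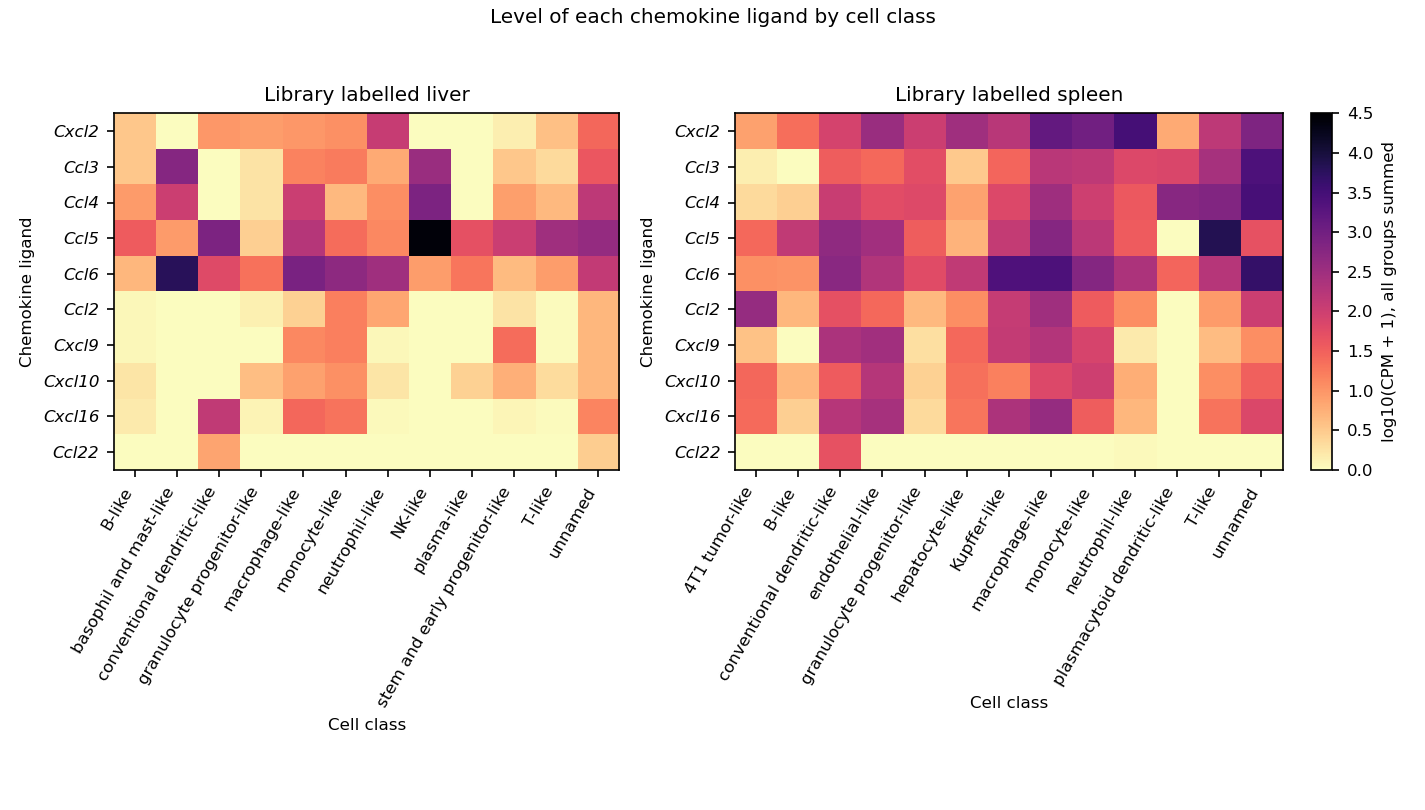
Level of each of the 10 chemokine ligands (rows) in each cell class (columns) of the liver-labelled library (left) and the spleen-labelled library (right). Color gives log10(CPM + 1) with the 3 groups summed. Ccl5 in NK-like cells (26856 CPM) is the darkest field on the left, and Ccl5 in T cell-like cells (6906 CPM) and Cxcl2 in neutrophil-like cells (3126 CPM) are among the darkest on the right.

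Cxcl2 UMIs lay mainly in neutrophil-like, macrophage-like and monocyte-like cells of the spleen-labelled library, and the level was lowest at high dose in all 3 classes. In neutrophil-like cells of that library Cxcl2 stood at 3186 CPM in vehicle (3122 to 3251, 360 cells), 4370 CPM in low dose (4305 to 4436, 620 cells) and 958 CPM in high dose (919 to 998, 156 cells). The 3 intervals did not overlap, and the log2 ratio to vehicle was -1.73 at high dose (-1.80 to -1.67) and 0.46 at low dose (0.42 to 0.49). In neutrophil-like cells of the liver-labelled library the levels were 132 CPM in vehicle, 118 CPM in low dose and 51.4 CPM in high dose, a log2 ratio of -1.36 at high dose (-1.58 to -1.15) and -0.16 at low dose. The high-dose pool was the lowest in both libraries, while low dose was above vehicle in one library and slightly below it in the other.

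The share of neutrophil-like cells with a Cxcl2 UMI followed the levels once cells were brought to equal depth. High-dose neutrophil-like cells were deeper (medians of 14205.5 UMIs in the spleen-labelled library and 18606 in the liver-labelled library) than vehicle cells (4921 and 4366). With each cell thinned to 500 UMIs, the spleen-labelled library held a Cxcl2 UMI in 58.1% of its vehicle cells (52.8 to 63.2), in 65.0% at low dose (61.1 to 68.8) and in 32.7% at high dose (25.4 to 40.7). Without thinning the shares were 76.9%, 84.7% and 64.1%. The thinned shares of the liver-labelled library were 5.95%, 4.89% and 1.52%, against 28.6%, 23.9% and 28.4% without thinning. B cell-like cells, which are not a known source of Cxcl2, gave a measure of the background. Thinned, a Cxcl2 UMI was held by 0 of 31 B cell-like cells in vehicle, 0 of 34 at low dose and 3.03% of 66 at high dose in the spleen-labelled library (6.45%, 5.88% and 9.09% without thinning, at medians of 2483, 2530.5 and 4089.5 UMIs), and the zeros allow shares of up to 9.68% and 8.82%.

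**Figure D2:**
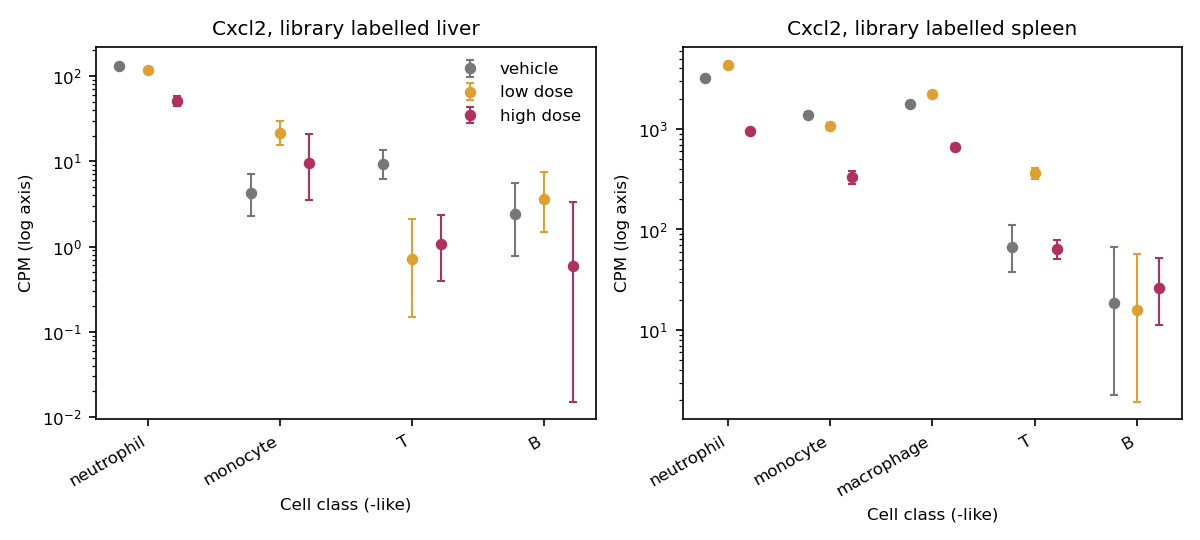
Cxcl2 level (CPM, log axis) by cell class and group in the liver-labelled library (left) and the spleen-labelled library (right). Points are pooled samples and bars are 95% exact Poisson intervals. High-dose neutrophil-like cells lie at 51.4 and 958 CPM, below the vehicle points at 132 and 3186 CPM.

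Macrophage-like and monocyte-like cells of the spleen-labelled library gave the same order of vehicle and high dose. In macrophage-like cells Cxcl2 stood at 1773 CPM in vehicle, 2226 CPM in low dose and 665 CPM in high dose, a log2 ratio of -1.42 at high dose (-1.53 to -1.30). In monocyte-like cells it stood at 1392, 1074 and 330 CPM, a log2 ratio of -2.07 at high dose (-2.31 to -1.85). Leaving out the cell with the most Cxcl2 UMIs in each group moved these ratios to -1.39 and -2.55. T cell-like, endothelial-like and hepatocyte-like cells of this library (the last with a median of 90.1% mitochondrial UMIs, and endothelial-like cells with 18.7%) also carried Cxcl2 UMIs, in 12 of 104 low-dose T cell-like and 10 of 104 low-dose endothelial-like cells, and 147 of the 231 Cxcl2 UMIs of low-dose T cell-like cells lay in 1 cell.

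The neutrophil-like cells of the groups lay in different clusters, and Cxcl2 differed strongly between those clusters. In the spleen-labelled library, cluster 0 (led by Il1b, Ccrl2 and Hcar2) held 118 vehicle, 188 low-dose and 4 high-dose cells and stood at 15426 CPM in vehicle and 12363 CPM in low dose. Cluster 12 (led by Bcl2l15, Orm1 and Saa1) held 2 vehicle, 118 low-dose and 2 high-dose cells and stood at 9751 CPM in low dose. The cluster led by the immature genes Camp, Cebpe and Fcnb (cluster 8) stood at only 116, 122 and 86.7 CPM. Within cluster 1 (Retnlg, Wfdc17) Cxcl2 stood at 6977 CPM in vehicle, 6440 CPM in low dose and 2486 CPM in high dose, a log2 ratio of -1.49 at high dose (-1.58 to -1.39). Within cluster 3 (Ly6g, Ltf) it stood at 1519, 1499 and 862 CPM, a log2 ratio of -0.82 (-0.95 to -0.68). The high-dose pool was thus below vehicle within clusters 1, 3 and 8 as well, while the low-dose excess over vehicle of the whole class was not seen in clusters 0, 1 or 3.

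Vehicle cells of the liver-labelled library were most numerous in cluster 2 (654 of 1429, led by Saa3 and Il1b) and high-dose cells in cluster 5 (149 of 197, led by Stfa3 and Stfa2). Cluster 2 stood at 224 CPM of Cxcl2 in vehicle and 259 CPM in low dose and held 9 high-dose cells. Within cluster 5 Cxcl2 stood at 118 CPM in vehicle, 108 CPM in low dose and 52.7 CPM in high dose, a log2 ratio of -1.16 at high dose (-1.42 to -0.90). Within cluster 8, with 22 high-dose cells, the log2 ratio was -0.89 (-1.51 to -0.32). The groups thus differed in the clusters their cells came from as well as in the level within a cluster.

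**Figure D3:**
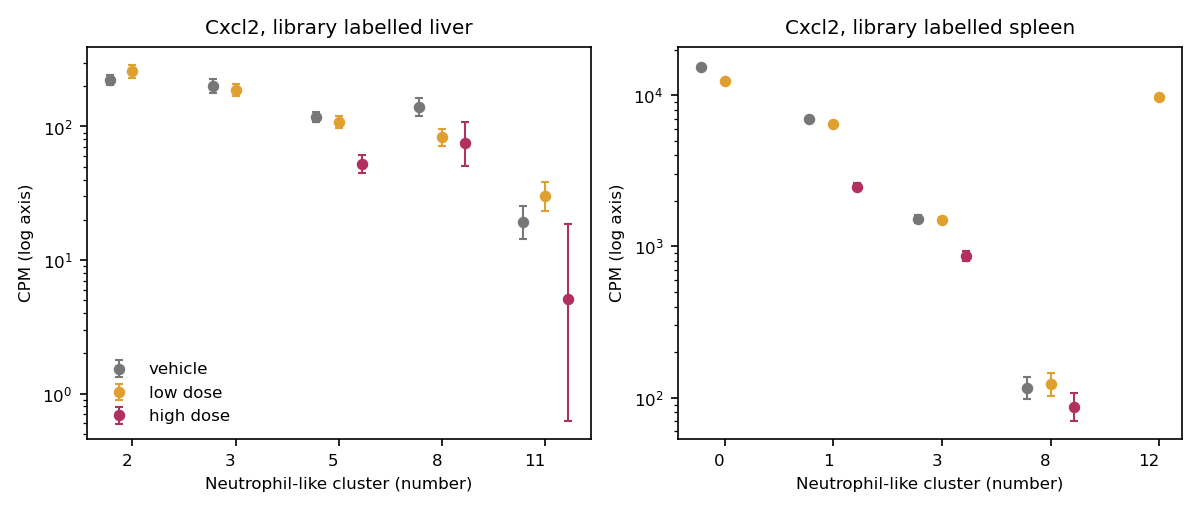
Cxcl2 level (CPM, log axis) in each neutrophil-like cluster of at least 10 cells per group, in the liver-labelled library (left) and the spleen-labelled library (right). Points are pooled samples and bars are 95% exact Poisson intervals. Cluster 0 on the right (15426 CPM in vehicle) has no high-dose point, and high dose is the lowest point in clusters 1, 3 and 8 on the right.

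The proximal promoter of Cxcl2 is shown because this gene was more than 2-fold lower at high dose in 3 myeloid classes of the spleen-labelled library. Other ligands also differed there, as given below. The sequence is from RefSeq (GRCm38.p6, 250 bases before to 50 after the annotated start) at chr5:90903649-90903948 on the + strand, with the matches to the κB motif, GGGA followed by NN and TTCC, in capitals. Motifs were searched on both strands.
Cxcl2: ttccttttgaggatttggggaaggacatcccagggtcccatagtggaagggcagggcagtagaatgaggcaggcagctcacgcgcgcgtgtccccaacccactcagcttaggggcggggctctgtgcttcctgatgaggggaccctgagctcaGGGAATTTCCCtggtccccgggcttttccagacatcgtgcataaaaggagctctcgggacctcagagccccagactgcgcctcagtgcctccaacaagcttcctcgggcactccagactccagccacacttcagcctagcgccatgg
The κB matches of Cxcl2, the motif bound by NF-κB family factors, overlapped on both strands at bases 154 to 164 of the window. A κB match was present in 1.47% of 32851 promoters, and in 2 of the 6 ligand promoters in the table (Cxcl2 and Cxcl10). The table also held Ccl3, Ccl6, Cxcl9 and Ccl22, and not Ccl4, Ccl5, Ccl2 or Cxcl16.

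Of the ligands with at least 20 UMIs over both groups, most were lower in high-dose than in vehicle neutrophil-like cells. A ligand counted as past 2-fold when its ratio exceeded 2-fold and its counting interval excluded no difference. In the spleen-labelled library 5 of 7 compared ligands were past 2-fold at high dose, all 5 lower, where 5.39% of 7530 genes were past 2-fold in either direction; the median log2 ratio of the ligands was -1.46 and that of all genes 0.02. The liver-labelled library had 5 of 6 past 2-fold and lower, where 14.6% of 9106 genes were; the medians were -2.21 and -0.37, so the whole pool of genes was also shifted there. At low dose 2 of 7 were past 2-fold and higher in the spleen-labelled library (4.22% of 7910 genes) and 2 of 6 were past 2-fold and lower in the liver-labelled library (2.71% of 9783 genes). Leaving out the cell with the most UMIs of a ligand in each group left 4 and 3 of the high-dose ligands past 2-fold and both low-dose pairs. Ccl2 at high dose in the liver-labelled library was not counted there, because its 1 high-dose UMI was left out and no ratio was formed. It still had 102 vehicle UMIs, and the upper bound of its log2 ratio was -3.17. Ccl5, in the low-dose pair of the spleen-labelled library, rested mainly on 2 cells, so leaving out 1 cell cannot show that it holds.

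Ccl3 in neutrophil-like cells of the spleen-labelled library stood at 30 CPM in vehicle (89 UMIs), 124 CPM in low dose (486 UMIs) and 8.55 CPM in high dose (20 UMIs). The log2 ratios were 2.04 at low dose (1.71 to 2.38) and -1.81 at high dose (-2.59 to -1.10). Of the 486 low-dose UMIs, 171 lay in cluster 12, which held 2 vehicle cells. Within cluster 0 the low-dose log2 ratio was 0.86 (0.50 to 1.23), within 2-fold. Cluster 1 had 1 vehicle and 24 low-dose Ccl3 UMIs (log2 ratio 4.27, 1.66 to 9.64). In the liver-labelled library Ccl3 stood at 7.96, 4.16 and 1.01 CPM, so that low dose lay above vehicle in the spleen-labelled library and below it in the liver-labelled library. Ccl4 stood at 38.1, 52.4 and 15.8 CPM in the spleen-labelled library and at 16.9, 5.42 and 4.30 CPM in the liver-labelled library, with high-dose log2 ratios of -1.27 and -1.98. High dose was lowest for both CC ligands in both libraries, over all neutrophil-like cells. Cluster 0 of the spleen-labelled library held 84 of the 89 vehicle Ccl3 UMIs and 4 high-dose cells. In clusters 1 and 3 there, Ccl3 had 1 vehicle UMI each and 9 and 5 high-dose UMIs, too few to compare. Ccl4 in cluster 1 had a high-dose log2 ratio of -1.64 (-2.51 to -0.84). In liver-labelled cluster 5, Ccl4 stood at 4.04 CPM in vehicle and 4.53 CPM in high dose (log2 ratio 0.17, -0.97 to 1.27). High dose was also lowest for Ccl2, at 13.8, 12 and 3.42 CPM in the spleen-labelled library and 9.39, 4.16 and 0.25 CPM (1 UMI) in the liver-labelled library. Cluster 0 held 33 of the 41 vehicle Ccl2 UMIs of the spleen-labelled library. Liver-labelled clusters 2 and 3, with 9 and 2 high-dose cells, held 73 and 29 of 112. Within spleen-labelled clusters 1, 3 and 8, Ccl2 had 6, 0 and 2 vehicle UMIs and 3, 4 and 1 high-dose UMIs. Liver-labelled clusters 5 and 8 had 7 and 2 vehicle UMIs and 1 and 0 high-dose UMIs, again too few to compare. Ccl5 was past 2-fold in neutrophil-like cells at low dose in the spleen-labelled library, where 181 of 303 UMIs lay in 1 cell of cluster 8. Another low-dose cell there, in cluster 1, held all but 1 of the 106 Ccl5 UMIs of that cluster. Ccl5 was also past 2-fold at high dose in the liver-labelled library, where 110 of the 147 vehicle UMIs lay in 1 cell.

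Ccl6, a CC ligand constitutively made by myeloid cells of rodents, did not pass 2-fold in neutrophil-like cells with all cells counted. It stood at 263, 200.2 and 221 CPM in the spleen-labelled library and at 373, 276 and 206 CPM in the liver-labelled library, with high-dose log2 ratios of -0.25 (-0.42 to -0.09) and -0.86 (-0.97 to -0.75). Without the richest cell of each group the liver-labelled ratio was -1.14 (-1.26 to -1.02), past 2-fold. In the liver-labelled library its level followed the clusters: clusters 2 and 3 stood at 780.5 and 1005 CPM in vehicle, and cluster 5, which held most high-dose cells, stood at 176 CPM in vehicle and 217 CPM in high dose. Within cluster 8 it stood at 236 CPM in vehicle and 115 CPM in high dose. Without the richest cells the high-dose log2 ratio was 0.02 in cluster 5 (-0.15 to 0.18) and -1.12 in cluster 8 (-1.67 to -0.61).

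**Figure D4:**
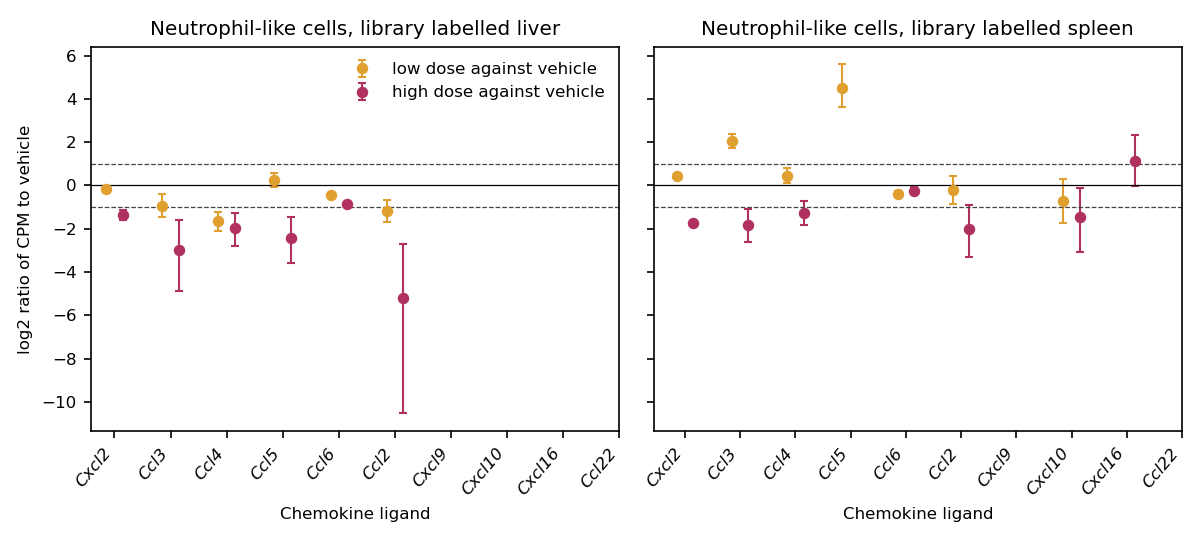
log2 ratio of the level to vehicle for low dose and high dose in neutrophil-like cells of the liver-labelled library (left) and the spleen-labelled library (right). Bars are 95% exact counting intervals, the dashed lines mark 2-fold, and ligands under 20 UMIs over both groups are left blank. The high-dose points of Cxcl2, Ccl3, Ccl4 and Ccl2 lie below -1 in both panels.

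Cells with a Cxcl2 UMI were compared with the other neutrophil-like cells for a second ligand, at 500 UMIs per cell. In the spleen-labelled library 17.5% of 663 cells with Cxcl2 (14.7 to 20.6) and 7.61% of 473 cells without it (5.39 to 10.4) held a Ccl6 UMI. In the same cells 5.13% (3.58 to 7.09) and 1.90% (0.87 to 3.58) held a Ccl3 UMI, a difference that lay in the low-dose group. The Ccl3 shares with and without Cxcl2 were 2.39% and 1.99% in vehicle and 7.20% and 1.84% in low dose. In high dose they were 0 of 51 cells and 1.90%. Of 43 cells with Ccl3, 16.3% held Ccl4, against 2.38% of 1093 cells without. In the liver-labelled library Ccl6 was present in 21.9% of 151 cells with Cxcl2 (15.5 to 29.3) and 16.6% of 2764 cells without it (15.3 to 18.1), intervals that overlapped.

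Between the libraries, Cxcl2 of vehicle neutrophil-like cells was 24.2-fold lower in the liver-labelled library (132 against 3186 CPM). Of 7 compared ligands 5 were past 2-fold between the libraries, where 17.2% of 9255 genes were: Cxcl2, Ccl3, Ccl4 and Cxcl10 were lower, and Ccl5 was higher, in the liver-labelled library. For Ccl5, 110 of the 147 UMIs of the liver-labelled library lay in 1 cell. Ccl6 (373 against 263 CPM) and Ccl2 (9.39 against 13.8 CPM) were within 2-fold. Organ and droplet library cannot be told apart in this comparison.

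Ccl5, a T and NK cell chemokine that is stored and released by cytotoxic lymphocytes, was within 2-fold of vehicle in its main sources. In NK-like cells of the liver-labelled library it stood at 26752 CPM in vehicle (33 cells), 22666 CPM in low dose (62 cells) and 30981 CPM in high dose (57 cells), and all 152 cells held at least 1 UMI. In T cell-like cells of the spleen-labelled library it stood at 7886, 7883 and 6292 CPM, with log2 ratios of -0.00 at low dose (-0.08 to 0.08) and -0.33 at high dose (-0.40 to -0.25). These T cell-like cells fell into a cluster of 195 cells led by Gzma, Gzmb, Prf1 and Cd8a at 9120 CPM and a cluster of 121 cells led by Il7r, Lef1 and Gimap3 at 832 CPM. Gzma, which is on the NK marker list, and Klrd1 were among the leading genes of the first cluster beside Cd3g and Trac. In T cell-like cells of the liver-labelled library Ccl5 stood at 291, 183 and 414 CPM. There a cluster led by Ikzf2, Izumo1r and Tnfrsf4, with Foxp3 among its leading genes, stood at 1334 CPM, a Cd8b1 and Cd8a cluster at 217 CPM and a Lef1 and Cd4 cluster at 23.9 CPM. A Ccl5 UMI was held by 76 of 449, 88 of 617 and 30 of 1214 cells of these clusters. In the cluster with Foxp3, 292 of the 483 vehicle UMIs lay in 1 cell.

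Ccl5 was also found in monocyte-like and macrophage-like cells. Monocyte-like cells of the spleen-labelled library stood at 20.0 CPM in vehicle, 7.66 CPM in low dose and 570 CPM in high dose, where 7 of 38 cells held a UMI and 198 of the 321 UMIs lay in 1 cell. Macrophage-like cells stood at 476, 391 and 784 CPM, and 232 of the 354 vehicle UMIs lay in 1 cell. With each cell at 500 UMIs, 5.56%, 5.88% and 18.1% of macrophage-like cells held a Ccl5 UMI. The intervals of these shares overlapped (1.16 to 15.4, 1.94 to 13.2 and 10.5 to 28.1).

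Ccl3 and Ccl4 are among the macrophage inflammatory proteins. In NK-like cells of the liver-labelled library Ccl4 stood at 531, 605 and 1037 CPM and Ccl3 at 303, 348 and 401 CPM in vehicle, low dose and high dose, all within 2-fold of vehicle. For Ccl4 at high dose this rested on 1 cell of each group, since the log2 ratio was 0.97 with all cells and 1.46 without the richest cells. In T cell-like cells of the spleen-labelled library Ccl4 stood at 462 CPM in vehicle, 1116 CPM in low dose and 461 CPM in high dose, and Ccl3 at 197, 477 and 178 CPM. Both were past 2-fold at low dose, with the same log2 ratio of 1.27 (0.97 to 1.59 for Ccl4 and 0.81 to 1.76 for Ccl3), and at high dose both lay at the vehicle level. In the cluster led by Gzma, 308 of the 660 low-dose Ccl4 UMIs lay in 1 cell, and 81 of the 274 low-dose Ccl3 UMIs also lay in 1 cell. Both ligands were still past 2-fold at low dose without the richest cell of each group. After thinning, 24.3% of 177 T cell-like cells with a Ccl5 UMI (18.2 to 31.3) and 0.72% of 139 without one (0.02 to 3.94) held Ccl4, and 58.6% of 29 cells with Ccl3 held Ccl4 against 9.41% of 287 without.

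Over all ligands, 4 of 5 compared in T cell-like cells of the spleen-labelled library were past 2-fold and higher at low dose, where 4.85% of 5340 genes were past 2-fold, and 1 of 7 at high dose (Ccl6), where 7.42% of 7221 genes were. The 4 were Ccl3, Ccl4, Cxcl2 and Ccl6, and all 4 were also past 2-fold without the richest cell of each group. For Ccl6, 124 of the 222 low-dose UMIs in the cluster led by Gzma lay in 1 cell. In the liver-labelled library 2 of 4 were past 2-fold at each dose, Cxcl2 lower and Ccl6 higher, where 1.25% of 9618 genes (low dose) and 1.75% of 9927 genes (high dose) were. There 27 of the 28 vehicle Cxcl2 UMIs lay in 1 cell, and without the richest cells no ligand of that class was past 2-fold at high dose and 1 was (Ccl6) at low dose.

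Ccl6 and Ccl3 were also high in small granulocyte populations. In the 23 basophil and mast-like cells of the liver-labelled library (8 vehicle, 11 low dose and 4 high dose) Ccl6 stood at 8095, 3483 and 11248 CPM and Ccl3 at 1415, 212 and 493 CPM. In the spleen-labelled library an unnamed cluster of 88 cells had a median of 26.5% mitochondrial UMIs and was led by Fosb and Furin. With all groups summed it stood at 2484 CPM of Ccl3, 3001 CPM of Ccl4 and 4672 CPM of Ccl6, above every named class of that library. At high dose it stood at 396 (12 UMIs), 99.1 (3 UMIs) and 165 CPM (5 UMIs). There Ccl4 and Ccl6 lay below macrophage-like cells (383 and 3159 CPM). The cluster held 390 of the 724 UMIs of the basophil protease gene Mcpt8 and 593 of the 1079 UMIs of Prss34. A split of its cells made after the values were seen put 461 of its 480 Ccl3 UMIs, 555 of its 580 Ccl4 UMIs and 866 of its 903 Ccl6 UMIs in the 16 cells with at least 2 of the basophil and mast genes, and all 139 of its Cxcl2 UMIs in the other 72 cells.

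Ccl6 was found in most macrophage-like cells of the spleen-labelled library. These cells, led by Arg1, Mmp12 and C1qb, stood at 2146 CPM in vehicle, 1851 CPM in low dose and 3159 CPM in high dose, a log2 ratio of 0.56 at high dose (0.48 to 0.64), and 94.6% of 222 cells held a UMI. Kupffer-like cells, the resident macrophages of liver sinusoids, stood at 4077, 1994 and 2432 CPM with 8, 26 and 41 cells. Monocyte-like cells stood at 583, 673 and 528 CPM in this library and at 523, 469 and 347 CPM in the liver-labelled library. Macrophage-like cells of the liver-labelled library, led by C1qa and Vcam1 with Spic among the leading genes, stood at 1183, 432 and 679 CPM, and 242 of the 287 vehicle UMIs lay in 1 cell.

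Ccl2, the main monocyte attractant, was higher in macrophage-like cells at high dose. It stood at 191 CPM in vehicle (142 UMIs), 112 CPM in low dose (138 UMIs) and 506 CPM in high dose (846 UMIs) in the spleen-labelled library, and the log2 ratio was 1.41 at high dose (1.15 to 1.67) and -0.77 at low dose (-1.11 to -0.42). Without the richest cell of each group the high-dose ratio was 1.49. Thinned to 500 UMIs, 9.26%, 9.41% and 15.7% of cells held a UMI, shares whose intervals overlapped. In monocyte-like cells high dose was the lowest of the groups, at 46.6, 36.1 and 17.8 CPM. The 60 4T1 tumor-like cells, led by genes that include the keratins Krt8 and Krt18, stood at 268 CPM in vehicle (6 cells), 222 CPM in low dose (13 cells) and 419 CPM in high dose (41 cells), and held 38.5% of the Ccl2 UMIs of the library.

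Of the 9 ligands compared in macrophage-like cells of this library 3 were past 2-fold at high dose, Cxcl2 lower and Ccl2 and Cxcl10 higher, where 4.25% of 8325 genes were past 2-fold. At low dose 1 of 9 was (Cxcl10, higher), where 4.31% of 7745 genes were. All of these were also past 2-fold without the richest cell of each group, and Ccl5 at high dose and Ccl3 at low dose, both higher, then passed it as well. In monocyte-like cells 7 of 9 were past 2-fold at high dose, where 5.14% of 6031 genes were: Cxcl2, Ccl3 and Ccl2 were lower and Ccl5, Cxcl9, Cxcl10 and Cxcl16 higher. At low dose 5 of 9 were, where 3.97% of 6607 genes were. Without the richest cells 5 ligands at high dose and 1 at low dose (Cxcl16) remained past 2-fold. In monocyte-like cells of the liver-labelled library 1 of 8 was past 2-fold at high dose (6.7% of 8879 genes), with 26 high-dose cells, and this ligand (Ccl2, with 75 UMIs in vehicle and 0 at high dose) was not called without the richest cells. There 5 of 8 were past 2-fold at low dose (3.43% of 9319 genes), of which 1 (Cxcl2) was so without the richest cells.

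Cxcl9 and Cxcl10, the interferon-inducible ligands of Cxcr3, were made mainly by macrophage-like, endothelial-like, dendritic and monocyte-like cells of the spleen-labelled library. Their promoters are shown because both ligands were higher at high dose in several classes there. They lie on the - strand at chr5:92328030-92328329 (Cxcl9) and chr5:92348840-92349139 (Cxcl10). Capitals mark matches to the κB motif above, to the interferon response element, GAAA followed by NN and GAAA, and to the AP-1 motif TGANTCA.
Cxcl9: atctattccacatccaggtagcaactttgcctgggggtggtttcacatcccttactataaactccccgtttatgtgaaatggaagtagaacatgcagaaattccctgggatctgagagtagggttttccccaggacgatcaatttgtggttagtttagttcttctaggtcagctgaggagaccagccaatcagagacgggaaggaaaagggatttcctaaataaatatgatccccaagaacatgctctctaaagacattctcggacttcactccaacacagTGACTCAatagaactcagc
Cxcl10: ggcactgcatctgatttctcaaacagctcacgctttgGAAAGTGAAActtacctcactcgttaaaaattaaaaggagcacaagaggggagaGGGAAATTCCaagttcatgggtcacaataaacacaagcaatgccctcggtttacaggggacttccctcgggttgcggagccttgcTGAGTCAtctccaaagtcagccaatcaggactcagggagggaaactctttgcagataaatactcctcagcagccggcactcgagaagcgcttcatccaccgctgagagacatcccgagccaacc
Cxcl10 held 1 match of each, the interferon response element at bases 38 to 47, κB at bases 92 to 101 and AP-1 at bases 177 to 183. Cxcl9 held the AP-1 motif at bases 282 to 288. The interferon response element was found in 3.44% and the AP-1 motif in 7.81% of the 32851 promoters.

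Cxcl9 in endothelial-like cells stood at 58.1 CPM in vehicle (5 UMIs, all in 1 of 34 cells), 29.7 CPM in low dose (9 UMIs in 8 of 104 cells) and 497 CPM in high dose (245 UMIs in 44 of 108 cells). The log2 ratio at high dose was 3.10 (1.85 to 4.73). With each cell at 500 UMIs, 0 of 34, 0 of 104 and 15.7% of 108 cells held a Cxcl9 UMI, so the high-dose level was spread over many cells. Each 0 still allows up to 3 cells, and median depths were 1381.5, 2122.5 and 3486 UMIs per cell in vehicle, low dose and high dose. In conventional dendritic-like cells it stood at 11.6, 81.3 and 501 CPM, a log2 ratio of 5.43 at high dose (3.86 to 7.72), and 9 of 39 high-dose cells held it, 1 of them 99 of the 204 UMIs. Median depth also differed there, at 1106.5 UMIs per cell in vehicle and 9512 in high dose. The conventional dendritic-like name of this cluster, led by H2-Aa, Ciita and H2-Eb1, rests on 3 raised markers, the minimum for naming. None of its marker list was among its leading genes. In macrophage-like cells the order was different, with 251 CPM in vehicle, 194 CPM in low dose and 158 CPM in high dose, a log2 ratio of -0.67 at high dose (-0.95 to -0.39).

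Cxcl10 in macrophage-like cells stood at 6.72 CPM in vehicle (5 UMIs in 2 of 54 cells), 56.9 CPM in low dose (70 UMIs in 11 of 85 cells) and 96.3 CPM in high dose (161 UMIs in 15 of 83 cells), with log2 ratios of 3.08 (1.79 to 4.75) and 3.84 (2.59 to 5.48). Both dose groups were above vehicle in level. Median depths of these cells were 11085.5, 13242 and 18516 UMIs. At 500 UMIs per cell, 0 of 48, 1 of 83 and 4 of 80 macrophage-like cells without Cxcl9 held Cxcl10, shares whose intervals overlapped. In endothelial-like cells Cxcl10 stood at 198 CPM in vehicle, 19.8 CPM in low dose and 282 CPM in high dose. There 16 of the 17 vehicle UMIs lay in 1 cell, whereas 36 of 108 high-dose cells held a UMI. At 500 UMIs per cell 1 UMI or more was found in 2.94% of the 34 endothelial-like cells in vehicle, none of the 104 at low dose and 11.1% of the 108 at high dose. All 17 of these thinned endothelial-like cells with Cxcl9 were high-dose cells, and 35.3% of them held Cxcl10 (14.2 to 61.7). Among the 91 high-dose cells without Cxcl9 the share was 6.59% (2.46 to 13.8). Over the 229 cells of all groups without Cxcl9 it was 3.06% (1.24 to 6.20), a share that also reflects the group difference. In macrophage-like cells none of the 11 cells with Cxcl9 held Cxcl10, against 5 of 211 cells without it (2.37%, 0.77 to 5.44). That 0 still allows up to 3 of the 11 cells, so these shares cannot be told apart.

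**Figure D5:**
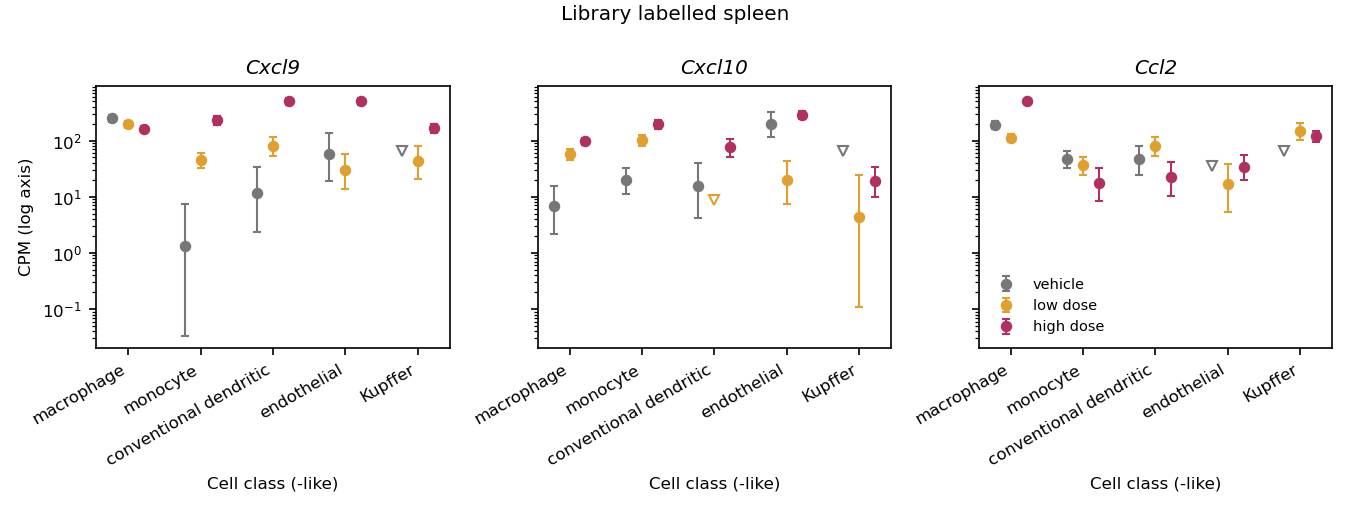
Levels (CPM, log axis) of Cxcl9, Cxcl10 and Ccl2 in 5 classes of the spleen-labelled library by group. Points are pooled samples, bars are 95% exact Poisson intervals, and open triangles mark the level that 3 UMIs would give where none was found. High dose is the highest point for Cxcl9 in endothelial-like cells (497 CPM) and for Ccl2 in macrophage-like cells (506 CPM).

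Of 7 ligands compared in endothelial-like cells 5 were past 2-fold at high dose, where 5.89% of 4581 genes were, and of 5 compared at low dose 4 were, where 7.11% of 3448 genes were. With 34 vehicle cells many of these rested on 1 cell, and 1 of them at each dose (Ccl6, higher) was also past 2-fold without the richest cells. Cxcl10 at high dose passed 2-fold only without them (log2 ratios of 0.51 and 4.06). For Cxcl9 at high dose no such ratio could be had, because no vehicle UMI was left. Ccl6 stood at 23.3, 116 and 278 CPM in endothelial-like cells, and its vehicle level was 2 UMIs. In conventional dendritic-like cells 4 of 8 ligands were past 2-fold at high dose (8.97% of 4123 genes) and 4 of 9 at low dose (6.85% of 3927 genes). Of these, 3 and 2 were also past 2-fold without the richest cells. Cxcl9 and Cxcl10 were higher and Ccl4 (124, 171 and 51.6 CPM) and Ccl6 (829, 566 and 356 CPM) lower at high dose.

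Cxcl16, which also occurs in a membrane-bound form, was within 2-fold of vehicle in macrophage-like cells of the spleen-labelled library, which held most of its UMIs there. In these it stood at 515 CPM in vehicle, 408 CPM in low dose and 320 CPM in high dose, a log2 ratio of -0.68 at high dose (-0.88 to -0.49). In Kupffer-like cells it stood at 197, 203 and 234 CPM, in endothelial-like cells at 174, 215 and 296 CPM, and in conventional dendritic-like cells at 151, 241 and 138 CPM. The Kupffer-like class had 8 vehicle cells and no ratio is given for it. In monocyte-like cells it was higher in both dose groups, at 14.6, 47.0 and 39.1 CPM, with log2 ratios of 1.68 at low dose (0.70 to 2.79) and 1.42 at high dose (0.31 to 2.61). In monocyte-like cells of the liver-labelled library, where most Cxcl16 UMIs lay, it stood at 15.0, 29.6 and 14.4 CPM. Its log2 ratios there were 0.98 at low dose and -0.06 at high dose, and 1.07 and -2.89, both past 2-fold, without the richest cell of each group. The ratio of -2.89 (-8.23 to -0.33) rested on 1 remaining UMI of the 9 at high dose.

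Ccl22 was close to the limit of detection. It had 5 UMIs in the liver-labelled library and 48 in the spleen-labelled library. Of the 48, 47 lay in conventional dendritic-like cells, in 5 of 176 cells, and 30 of the 32 low-dose UMIs lay in 1 cell. It was 1 of the 4 ligands past 2-fold at low dose in that class (log2 ratio of 4.59), a value that rested on that cell.

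The genes whose levels varied most like each ligand over the 59 pools of a class, group and library with at least 20 cells are given as a description, since pools share a library and differ in depth. Cxcl2 was closest to Dusp1 (Pearson's r = 0.89), Ccrl2 (0.87) and Trib1 (0.82). Ccl5 was closest to Klrd1 (0.93), Ccl6 to Fcgr4 (0.91), Cxcl16 to Dab2 (0.93), Ccl3 and Ccl4 both to Dusp5 (0.80 and 0.81), and Ccl2 to Sh3pxd2b (0.83). Cxcl9 was closest to Dab2 (0.77) and Cxcl10 to Sh3tc1 (0.73).

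Of 27 other chemokine ligands 26 were listed, and 15 held at least 100 UMIs over both libraries. In the spleen-labelled library macrophage-like cells held the largest share of Ccl7, Ccl8, Ccl9, Ccl12, Ccl24, Cxcl14 and Pf4. Kupffer-like cells held 75.4% of Cxcl13, 4T1 tumor-like cells held 93.4% of Cx3cl1 and 43.0% of Cxcl1, and T cell-like cells held 91.7% of Xcl1 and 92.5% of Ccl1. Cxcl3, the closest relative of Cxcl2 here, had 52.3% of its UMIs in neutrophil-like cells, where it stood at 79.6 CPM in vehicle, 146 CPM in low dose and 52.2 CPM in high dose. Its log2 ratios of 0.88 and -0.61 had the same signs as those of Cxcl2 and were within 2-fold.

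Cxcr2 and Ccr1 stayed within 2-fold of vehicle in neutrophil-like cells. Cxcr2, the receptor of Cxcl2 on neutrophils, stood at 306, 424 and 285 CPM in neutrophil-like cells of the spleen-labelled library and at 701, 775 and 531 CPM in the liver-labelled library. Ccr1, which binds Ccl3, Ccl5 and Ccl6, stood at 320, 375 and 257 CPM and at 408, 374 and 324 CPM. Cxcr6, the receptor of Cxcl16, was highest in T cell-like cells (390 CPM), and Ccr2, the receptor of Ccl2, in monocyte-like cells (1271 CPM) of the spleen-labelled library.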

How the data were processed

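Each matrix, as deposited, held whole-number counts of unique molecular identifiers per gene and barcode, with hashtag antibody counts beside them. The authors made these counts with Cell Ranger on mm10. The matrix header names version 5.0.0 and the labels name version 6.0.0. The lowest total of a deposited barcode was 500 UMIs, and no further filter on cells was applied.

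From the deposited counts, hashtags were called with HTODemux at a quantile of 0.99 (Seurat 5.3.0, R 4.3.3), and doublets between hashtags and barcodes with no call were left out. Cells were normalized with sctransform 0.4.2, and 30 principal components and a resolution of 0.8 gave the clusters. The 37 chemokine ligands were left out of the variable features. The marker list with most members among the leading genes of a cluster was taken, with ties settled by the share of its markers raised. A cluster was named when at least 3 markers of that list were raised. Clusters of low median depth with no marker among their leading genes were left unnamed. Doublets within a hashtag were kept: Scrublet (scanpy 1.11.5) called 2.59% of barcodes in the liver-labelled library, and its 0.0207% in the spleen-labelled library is too few for the caller to have worked.

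UMIs were summed per class and group and divided by the pool total to give CPM, with exact Poisson intervals. Ratios had exact conditional binomial intervals, shares exact Clopper-Pearson ones, and a count of 0 was bounded by 3 counts. Intervals cover counting error only, and each group was 1 pool, so no test between conditions was run. Likeness was Pearson's r of log2(CPM + 10) among genes with at least 200 UMIs, and the 3 closest genes were ranked. The genes named were all 10 ligands, other ligands with at least 100 UMIs and some of the receptors, and 1 gene is not reported here. The members, marker lists and gene lists were chosen with earlier results of these data known. The ratio and interval calculations were tested on simulated independent counts, which do not include UMIs gathered in single cells. Alternatives covered hashtag calls, cell filters, doublets, resolution, features, scaling, thinning and count minimums, and leaving out the richest cell was added after the data were seen. Promoters came from RefSeq (GRCm38.p6).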

Additional observations from a re-analysis of the deposited data

Results flagged for a closer look

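For 3 pairs of results the low-dose ratio had opposite signs in the libraries. The differences were not tested. Ccl5 in B cell-like cells had a log2 ratio of 4.28 in the liver-labelled library, where 100 of the 177 low-dose UMIs lay in 1 cell, and -6.36 in the spleen-labelled library, where 65 of the 70 vehicle UMIs lay in 1 cell. Cxcl2 in T cell-like cells had a log2 ratio of -3.71 in the liver-labelled library, where 27 of the 28 vehicle UMIs lay in 1 cell, and 2.43 in the spleen-labelled library, where 147 of the 231 low-dose UMIs lay in 1 cell. Without the richest cell of each group, the ratio was still past 2-fold in B cell-like cells of the liver-labelled library (3.23) and in T cell-like cells of the spleen-labelled library (3.25). Ccl5 in monocyte-like cells had a log2 ratio of 2.91 in the liver-labelled library, where 101 of the 105 low-dose UMIs lay in 1 cell, and -1.38 in the spleen-labelled library, where vehicle held 15 UMIs and low dose 7.

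The 1627 barcodes of the spleen-labelled library with no hashtag call entered no comparison. They held Cxcl9 at 61.3 CPM and Cxcl10 at 46.3 CPM, against 28.2 and 9.26 CPM over all vehicle cells of that library. Over its assigned cells of all groups together the levels were 53.3 and 29.1 CPM. Barcodes with no call can come from any group.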

How the results depend on the processing

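No neutrophil-like value past 2-fold reversed its sign under the alternatives recomputed. In other classes 5 ratios past 2-fold changed sign without the richest cell of each group: Cxcl2 in liver-labelled T cell-like cells (from -3.71 to 0.51 at low dose and from -3.12 to 1.42 at high dose), Ccl5 at low dose in monocyte-like cells of the liver-labelled (from 2.91 to -0.62) and spleen-labelled library (from -1.38 to 0.29), and Ccl5 at high dose in spleen-labelled endothelial-like cells (from -1.85 to 4.04). Of 291 single-gene values recomputed, all in neutrophil-like cells, 234 stayed inside the counting interval of the reported value and 57 moved outside it. Single-gene ratios of other classes were recomputed only without the richest cell of each group. Other hashtag calls, cell filters, resolutions and doublet removal were not applied to those ratios. For neutrophil-like cells, the count of ligands past 2-fold at high dose in the spleen-labelled library was 5, and 2 of 4 compared when cells needed 200 genes and a mitochondrial share under 10%. The low-dose count there was 2, and 4 with the mean over cells of CPM. The low-dose count in the liver-labelled library was 2, and 4 without the richest cell of each group, an alternative added after seeing the data. Ligands with most UMIs in neutrophil-like cells of the spleen-labelled library numbered 2, and 1 with MULTIseqDemux, with the dominant hashtag, with that cell filter, at a resolution of 0.4 and with all variable features. The cause was not tested in any of these cases. No paired analysis was possible because each group was 1 pool per library. Counts under 20 UMIs over both groups were not compared, and leaving out a replicate could not be done.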
